A study of Mus musculus with 311 samples.

Results

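Of 311 mouse livers, 77 were chosen by the measured values of 2 transcripts, Ifit3 and Irf7, as interferon-high, and were compared with the 77 livers lowest on the same measure (interferon-low). Ifit3 codes for an antiviral protein with tetratricopeptide repeats, and Irf7 for the transcription factor that amplifies the type I interferon response. The animals were the F2 generation of a cross of C57BL/6J with C3H/HeJ, 2 inbred strains, and included both sexes. Every animal carried an ApoE null background (no working gene for apolipoprotein E, which clears remnant lipoproteins), and all ate a high fat "Western" diet between 8 and 24 weeks of age. Total RNA of 1 liver, labelled with Cy3, was set on each array against a pool of equal portions of all samples' RNA, labelled with Cy5. Values are given as log2 ratios to that pool, so a value of 0 is the pool's level, and a value says nothing of how abundant a transcript is relative to another. The deposited values were read as log10 ratios, a base that the files do not state; if they are natural logarithms, every log2 difference and fold given here is too large, while directions and calls are the same. No group with wild-type Apoe, another diet or an infection was analysed here, and the sex, genotype and phenotype of single animals were not used.

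The score was the mean of the standardized values of Ifit3 and Irf7. The arrays were first split on Eif2s3y, a Y-linked gene for a subunit of a translation initiation factor, at a log10 ratio of -0.5. This left a set of 155 Eif2s3y-high and a set of 156 Eif2s3y-low arrays, whose median log10 ratios of Eif2s3y were 0.358 and -1.46. The arrays nearest to the split stood at -0.219 above it and -0.875 below it. Within each set the arrays were ranked by the score in 4 bands of nearly equal size, and the highest band (interferon-high) was compared with the lowest (interferon-low): 38 against 38 arrays in the Eif2s3y-high set and 39 against 39 in the Eif2s3y-low set. Differences are interferon-high minus interferon-low, ± SE, and a pair of values gives the Eif2s3y-high set before the Eif2s3y-low set unless the sets are named.

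Interferons are secreted proteins that cells release when sensors meet foreign or misplaced nucleic acid. Type I interferons signal through the receptor subunits Ifnar1 and Ifnar2, and Jak1 and Tyk2 then activate a complex with Stat2 and Irf9 that binds a promoter element called ISRE. Type II interferon (Ifng) signals through Ifngr1 and acts on promoters with the GAS element. In liver both hepatocytes and resident macrophages (Kupffer cells) respond, and the targets include antiviral enzymes, GTPases that attack intracellular parasites, and the machinery of antigen presentation.

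Promoter stretches of 6 interferon targets are shown because they hold the letters of the ISRE, which the results refer to. The core of the ISRE was searched as GAAA, any 2 bases and GAAA again (TTTC, any 2 bases and TTTC on the other strand) in the 250 bases before each gene's start in the RefSeq promoters of GRCm38.p6. The stretches are printed 5′ to 3′ on the strand of each gene, with bases that match the core in capitals. Ifit3 is shown because it set the score, Ifit1 because it is a relative that the score did not use, Isg15 as the ubiquitin-like modifier, Gbp3 and Tgtp1 as GTPases, and Rsad2 as an antiviral enzyme.
Ifit3: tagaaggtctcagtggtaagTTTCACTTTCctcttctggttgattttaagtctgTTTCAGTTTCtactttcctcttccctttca
Ifit1: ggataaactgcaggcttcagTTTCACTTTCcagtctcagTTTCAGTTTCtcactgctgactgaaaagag
Isg15: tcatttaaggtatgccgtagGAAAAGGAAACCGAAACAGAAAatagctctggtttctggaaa
Gbp3: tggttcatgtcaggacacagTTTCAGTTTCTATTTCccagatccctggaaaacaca
Tgtp1: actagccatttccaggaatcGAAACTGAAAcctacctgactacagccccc
Rsad2: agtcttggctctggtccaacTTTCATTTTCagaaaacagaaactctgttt

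These stretches lie at chr19:34583353-34583436 (plus strand) for Ifit3, chr19:34640765-34640833 (plus) for Ifit1, chr4:156200855-156200916 (minus) for Isg15, chr3:142559979-142560034 (plus) for Gbp3, chr11:48992294-48992343 (minus) for Tgtp1 and chr12:26456543-26456592 (minus) for Rsad2, all upstream of the transcript. Ifit3, Ifit1 and the Gbp3 promoter shown each held 2 matches and Isg15 held 3, of which some overlapped. Another promoter of Gbp3 held 0 matches. The window of Irf7 held 0 matches to these letters. The core was found in 2.98% of all 32851 promoters, and among the 8544 tested genes with a promoter 3.58% did.

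By construction the groups stood apart on both genes of the score, and these values are a description of the choice. In the Eif2s3y-high set, Ifit3 had a lowest, median and highest log2 ratio of -0.49, -0.01 and 0.69 in the interferon-high arrays, against -1.54, -0.73 and -0.27 in the interferon-low group. In the Eif2s3y-low set the same 3 values were 0.07, 0.59 and 1.02 in the interferon-high arrays, against -0.95, -0.17 and 0.07 in the interferon-low group. The ranges of Ifit3 overlapped in the Eif2s3y-high set and were just apart in the Eif2s3y-low set. Irf7 had medians of 0.09 in the interferon-high and -0.63 in the interferon-low arrays of the Eif2s3y-high set, and of 0.45 and -0.16 in those of the Eif2s3y-low set. Its ranges were apart in the Eif2s3y-high set and overlapped in the Eif2s3y-low set. Of the 38 interferon-high arrays in the Eif2s3y-high set, 31 were in the highest band by Ifit3 alone, 25 by Irf7 alone and 20 by both. Among Eif2s3y-low arrays these numbers were 31, 29 and 21 of 39.

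"High" is therefore relative to the set. The median score was -0.503 in the Eif2s3y-high set and 0.607 in the Eif2s3y-low set, and 5 of the 38 interferon-high arrays of the Eif2s3y-high set lay above the median of the other set. Had the 77 highest scores been taken from the whole series, 4 of them would have been Eif2s3y-high. The limit of the highest band fell between scores of -0.0748 and -0.0836 in the Eif2s3y-high set and between 1.0408 and 1.0356 in the Eif2s3y-low set. The limit of the lowest band fell between -1.03 and -1.01, and between 0.150 and 0.166. No gap in the score separated the interferon-high livers from the rest at any of these limits. At the low end, 1 array of each set stood apart from the others of its group, at -3.39 in the Eif2s3y-high and -3.15 in the Eif2s3y-low set. Without these 2 arrays 483 genes were called higher and 122 lower in both sets, against 496 and 133 with them.

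**Figure D1:**
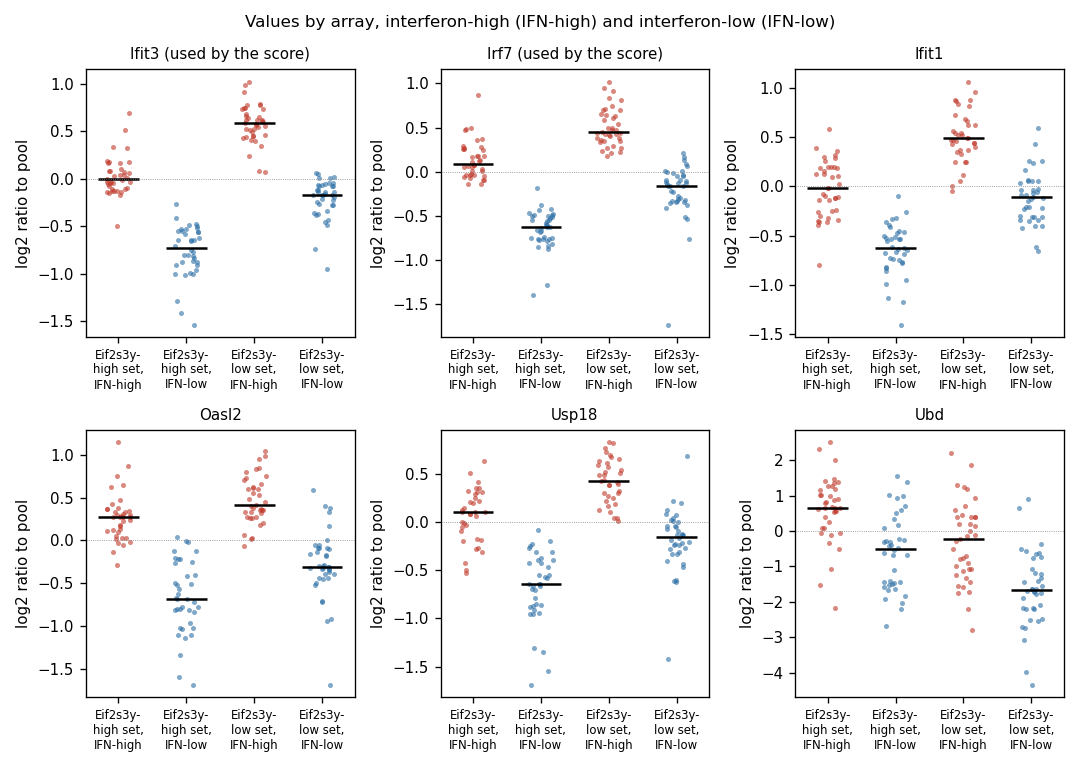
Log2 ratio to the pool (vertical axis) of each array for 6 genes, in the interferon-high (red) and interferon-low (blue) group of both sets; black lines are medians. Ifit3 and Irf7 set the groups, while the other 4 genes did not; in Ifit1, Oasl2 and Usp18 nearly all red points lie above the blue median of their set, and Ubd spreads over several log2 units in every group.

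Ifit1, the marker that the score left out, checked the label. It had a lowest, median and highest log2 ratio of -0.80, -0.02 and 0.58 in the interferon-high arrays of the Eif2s3y-high set, against -1.41, -0.62 and -0.10 in the interferon-low group. In the Eif2s3y-low set it had -0.05, 0.49 and 1.07 in the interferon-high arrays, against -0.65, -0.11 and 0.59 in the interferon-low group. In the Eif2s3y-high set 37 of the 38 interferon-high arrays lay above the median of the interferon-low group. In the Eif2s3y-low set all 37 with a value did. The ranges overlapped in both sets. Ifit1 was 1.54-fold higher in both sets (log2 difference 0.62 ± 0.06 SE in each, limma adjusted p = 2.81e-12 and 3.19e-12). Ifit1 lies beside Ifit3 on chromosome 19, as does Ifit2, so the label was also read from genes elsewhere. Ifit3 has a near-identical copy, as have Oas1a and Tgtp1, and the arrays may not separate such copies.

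Across all other named genes, 881 of 11385 (7.74%) were higher and 541 (4.75%) lower in the interferon-high arrays of the Eif2s3y-high set at an adjusted p under 0.05 in limma. Among Eif2s3y-low arrays 823 (7.23%) were higher and 598 (5.25%) lower. Both sets shared 629 genes called in the same direction (5.52%), of which 496 were higher (4.36%) and 133 lower (1.17%). The shared higher genes made up 56.3% of the higher calls of the Eif2s3y-high set and 60.3% of those of the Eif2s3y-low set. The shared lower genes made up 24.6% and 22.2% of the lower calls. The differences were small: the shared higher genes had a median fold of 1.24 and 1.23 in the 2 sets, and 19 of them passed 1.5-fold in both. The shared lower genes had a median log2 difference of -0.16 in each set, and 0 passed 1.5-fold in both. The median over all genes was -0.01 and -0.00. The score and the genes were read on the same arrays, and each p measures the spread over arrays of separate animals.

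The 2 sets share no array, which allowed their differences to be compared directly. The test of the difference between sets called 0 genes (0.0%) in limma, with 901 genes (7.91%) at an unadjusted p under 0.05. The smallest adjusted p was 0.153, for Dpysl3, which codes for a cytoskeletal regulator: its log2 difference was 0.22 ± 0.05 in the Eif2s3y-high and -0.07 ± 0.04 in the Eif2s3y-low set. Ttc21b was the 1 gene called in opposite directions, with 0.15 and -0.09, and the difference between these had an adjusted p of 0.312.

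**Figure D2:**
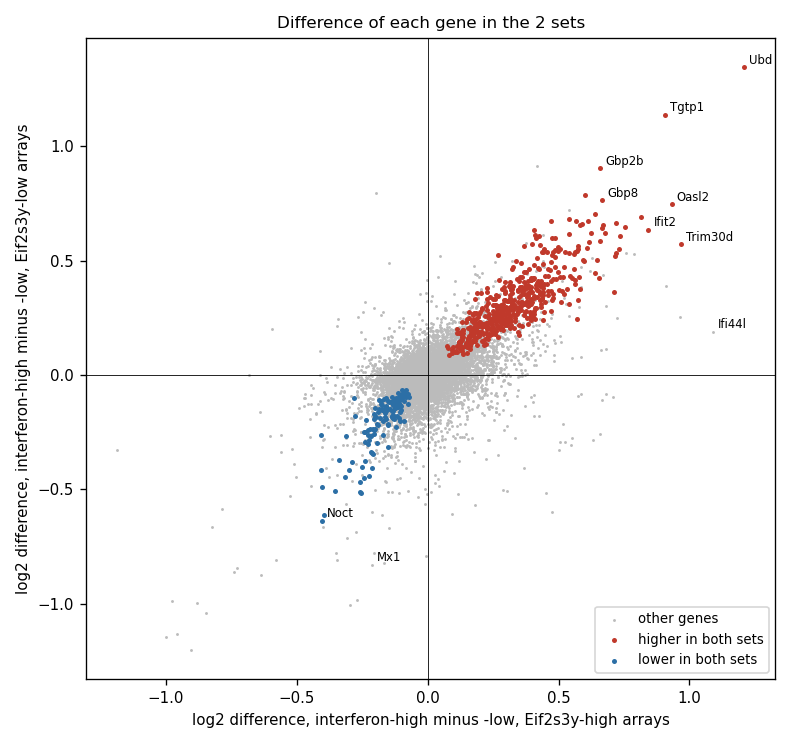
Log2 difference of each gene (interferon-high minus interferon-low) in the Eif2s3y-high set (horizontal axis) and in the Eif2s3y-low set (vertical axis). The 496 genes called higher in both (red) and the 133 called lower in both (blue) lie in the quadrants of matching sign because the calls require it. Ubd reaches 1.21 and 1.34, and Ifi44l and Mx1 lie off the diagonal.

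Among 9 measured ligand and receptor genes none was called lower in both sets, against 1.17% of all genes. Against 4.36% of all genes, 3 were called higher in both. These were Ifnar2, with log2 differences of 0.22 ± 0.05 and 0.26 ± 0.05, Ifngr1 with 0.27 ± 0.06 and 0.25 ± 0.05, and Il10rb, a subunit shared by the receptors of interferon lambda and interleukin 10, with 0.19 ± 0.06 and 0.21 ± 0.06. Ifng was called higher in the Eif2s3y-low set (0.39 ± 0.07, adjusted p = 7.04e-06), and in the Eif2s3y-high set its difference was 0.25 ± 0.09 (adjusted p = 0.0623). The type I genes Ifnb1, Ifna1 and Ifna2 were not called in either set, with differences from -0.04 to 0.10. Ifnar1, the other chain of the type I receptor, was not called either (-0.05 and -0.01).

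Among sensors of nucleic acid and their adaptors, 3 of 9 were higher in both sets, against 4.36% of all genes. Tlr7, the receptor for single-stranded RNA in endosomes, had log2 differences of 0.36 ± 0.05 and 0.35 ± 0.06. Zbp1, a sensor of Z-form nucleic acid, had 0.30 ± 0.08 and 0.36 ± 0.09, and Ikbke, a kinase that activates Irf3 and Irf7, had 0.15 ± 0.05 and 0.24 ± 0.06. Ifih1, the cytosolic sensor of long double-stranded RNA, was called in the Eif2s3y-low set (0.23 ± 0.06) and Tlr3 in the Eif2s3y-high set (0.16 ± 0.05). Myd88, Tbk1, Irak1 and Tlr9 were not called in either set.

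The kinases Jak1, Jak2 and Tyk2 were not called in either set, nor were Irf2 and Irf3. Against 4.36% of all genes, 9 of 15 signalling and transcription factor genes were higher in both sets. Among them were Stat2 and Irf9 of the ISRE-binding complex: Stat2 had 0.17 ± 0.05 and 0.20 ± 0.05, and Irf9 0.11 ± 0.03 in each set. Irf1, which type II interferon induces, had 0.18 ± 0.05 and 0.33 ± 0.05, and Irf5 had 0.30 ± 0.07 and 0.41 ± 0.06. Irf8, a factor of myeloid cells, had 0.30 ± 0.05 and 0.27 ± 0.05. The feedback inhibitor Socs1 had 0.39 ± 0.09 and 0.42 ± 0.06, the nuclear body protein Sp100 0.48 ± 0.06 and 0.35 ± 0.05, and the RNA editing enzyme Adar 0.12 ± 0.04 and 0.18 ± 0.04.

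Of 61 measured targets in 4 lists (antiviral effectors, ISG15 conjugation, interferon-inducible GTPases and the Ifi200 family), 41 (67.2%) were called higher in both sets, against 4.36% of all genes. Their median log2 difference was 0.34 in each set, against -0.01 and -0.00 over all genes. None of the 61 was called lower in both sets.

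The oligoadenylate synthetases make a messenger that activates an RNA-degrading nuclease, and Oas2 and Oasl2 were among the 15 shared genes with the largest rise. Oasl2 had a lowest, median and highest log2 ratio of -0.29, 0.27 and 1.15 in the interferon-high arrays of the Eif2s3y-high set, against -1.68, -0.68 and 0.04 in the interferon-low group. In the Eif2s3y-low set it had -0.06, 0.41 and 1.04 in the interferon-high arrays, against -1.68, -0.30 and 0.59 in the interferon-low group. In each set all 38 interferon-high arrays with a value lay above the median of their interferon-low group. In the Eif2s3y-low set 1 interferon-high array had no value. Oasl2 was 1.91-fold and 1.68-fold higher (0.93 ± 0.08 and 0.75 ± 0.08). Oas2 had log2 differences of 0.75 ± 0.07 and 0.65 ± 0.07, Oas1g 0.72 ± 0.07 and 0.54 ± 0.08, Oasl1 0.58 ± 0.05 and 0.55 ± 0.06, and Oas1c 0.51 ± 0.06 and 0.37 ± 0.04. Oas1a, which can share signal with Oas1g, had 0.57 ± 0.05 and 0.33 ± 0.09. Oas1b was not called in either set (-0.03 in each).

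Usp18, the protease that removes ISG15 and blocks the type I receptor, had medians of 0.10 in the interferon-high and -0.64 in the interferon-low arrays of the Eif2s3y-high set. Among Eif2s3y-low arrays its medians were 0.43 and -0.15. It was 1.66-fold and 1.52-fold higher (0.73 ± 0.08 and 0.61 ± 0.07). Isg15 itself differed less, by 0.18 ± 0.05 and 0.15 ± 0.04, and Ube2l6, the enzyme that carries it to targets, was not called (0.01 and -0.01). Ifit2 had 0.84 ± 0.08 and 0.64 ± 0.08, Rsad2 (viperin) 0.37 ± 0.06 and 0.41 ± 0.07, Rtp4 0.54 ± 0.05 and 0.43 ± 0.05, and the ADP-ribosyltransferase Parp14 0.45 ± 0.05 and 0.43 ± 0.04.

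Several antiviral genes did not follow. Mx1, which codes for a GTPase that blocks influenza virus, had a median of -0.63 in the interferon-high arrays and 0.14 in the interferon-low group of the Eif2s3y-low set, where it was lower by 0.83 on the log2 scale (-0.83 ± 0.15, adjusted p = 3.05e-05). In the Eif2s3y-high set its difference was -0.21 ± 0.10 (adjusted p = 0.144), and the test of the difference between sets gave an adjusted p of 0.397. Mx2, its neighbour on chromosome 16, was higher in both sets (0.31 ± 0.08 and 0.34 ± 0.06). Ifi44l spread over more than 4 log2 units in each group and was called in the Eif2s3y-high set (1.09 ± 0.25), whereas in the Eif2s3y-low set it had 0.19 ± 0.33. Isg20 and Xaf1 were lower in the Eif2s3y-high set (-0.09 ± 0.03 and -0.11 ± 0.04). Lgals9 was lower in the Eif2s3y-low set (-0.21 ± 0.07), where its second probe gave -0.02, and in the Eif2s3y-high set its 2 probes differed in sign. Bst2, Ifitm1, Ifitm2, Trim21 and Mov10 were not called in either set.

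The GTPases that coat and break the vacuoles of intracellular parasites were called almost without exception. Of 11 measured, 10 were higher in both sets, against 4.36% of all genes. The median log2 difference over the list was 0.50 and 0.55. Tgtp1 had a lowest, median and highest log2 ratio of -1.06, -0.10 and 2.05 in the interferon-high arrays of the Eif2s3y-high set, against -2.03, -0.89 and 1.25 in the interferon-low group. In the Eif2s3y-low set it had -0.64, 0.51 and 2.27 in the interferon-high arrays, against -1.54, -0.61 and 0.72 in the interferon-low group. The ranges overlapped widely, and single interferon-low arrays exceeded the median of the interferon-high ones. Tgtp1 was 1.87-fold and 2.20-fold higher (0.91 ± 0.18 and 1.14 ± 0.15).

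Among the guanylate-binding proteins, Gbp3 had log2 differences of 0.57 ± 0.07 and 0.67 ± 0.07, Gbp8 0.67 ± 0.11 and 0.76 ± 0.10, Gbp2 0.50 ± 0.11 and 0.54 ± 0.10, and Gbp2b 0.66 ± 0.19 and 0.90 ± 0.18. Of the smaller immunity-related GTPases, Igtp had 0.40 ± 0.13 and 0.57 ± 0.09, Irgm1 0.23 ± 0.06 and 0.38 ± 0.06, and Ifi47 0.34 ± 0.08 and 0.50 ± 0.07. The second probe of Igtp gave 0.12 and 0.07. Iigp1 was the member not called (0.01 and 0.04), although its second probe gave 0.25 and 0.33. The probes of Gvin1 disagreed in sign. Against 4.36% of all genes, 3 of 4 genes in the Ifi200 family of DNA-binding proteins were higher in both sets. These were Ifi203, Ifi204 and Ifi205, with differences from 0.25 to 0.56. The second probe of Ifi203 gave 0.09 and 0.06, and for Ifi204 1 of its 3 probes had the other sign. Ifi202b was not called (0.63 ± 0.35 and 0.51 ± 0.28), with values as low as -3.78 in the interferon-high and -3.99 in the interferon-low arrays.

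A gene was counted when any of its promoters held the core. The ISRE core was found in 18 of the 30 called targets (60.0%) with a promoter in the RefSeq table. Among targets not called in both sets it was found in 4 of 16 (25.0%). Among all shared higher genes it was found in 44 (11.2% of those with a promoter), and among shared lower genes in 7 of 111 (6.31%). The GAS core, searched as TTCNNNGAA (which reads the same on both strands), was found in 7.34% of tested genes and in 8.93% of the shared higher genes. It was found in 6 of the 30 called targets with a promoter (20.0%) and in 3 of the 16 targets not called in both sets (18.8%). These counts describe letters in a window, and no binding was measured.

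The largest shared difference of all belonged to Ubd, which codes for the ubiquitin-like protein FAT10. It had a lowest, median and highest log2 ratio of -2.17, 0.67 and 2.52 in the interferon-high arrays of the Eif2s3y-high set, against -2.69, -0.50 and 1.55 in the interferon-low group. Among Eif2s3y-low arrays it had -2.79, -0.22 and 2.22 in the interferon-high arrays, against -4.35, -1.66 and 0.90 in the interferon-low group. Ubd was 2.31-fold and 2.54-fold higher (1.21 ± 0.23 and 1.34 ± 0.25), but the groups overlapped over most of their range. With the score taken from Irf7 alone its differences were 0.72 and 0.65 and it was not called in either set. Other large shared differences belonged to the platelet chemokine Ppbp (0.66 ± 0.16 and 0.64 ± 0.16), the collagenase Mmp13 (0.82 ± 0.19 and 0.69 ± 0.17), Themis2, a signalling adaptor of B cells and macrophages (0.64 ± 0.07 and 0.70 ± 0.08), and Plac8 (0.68 ± 0.09 and 0.62 ± 0.10).

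**Figure D3:**
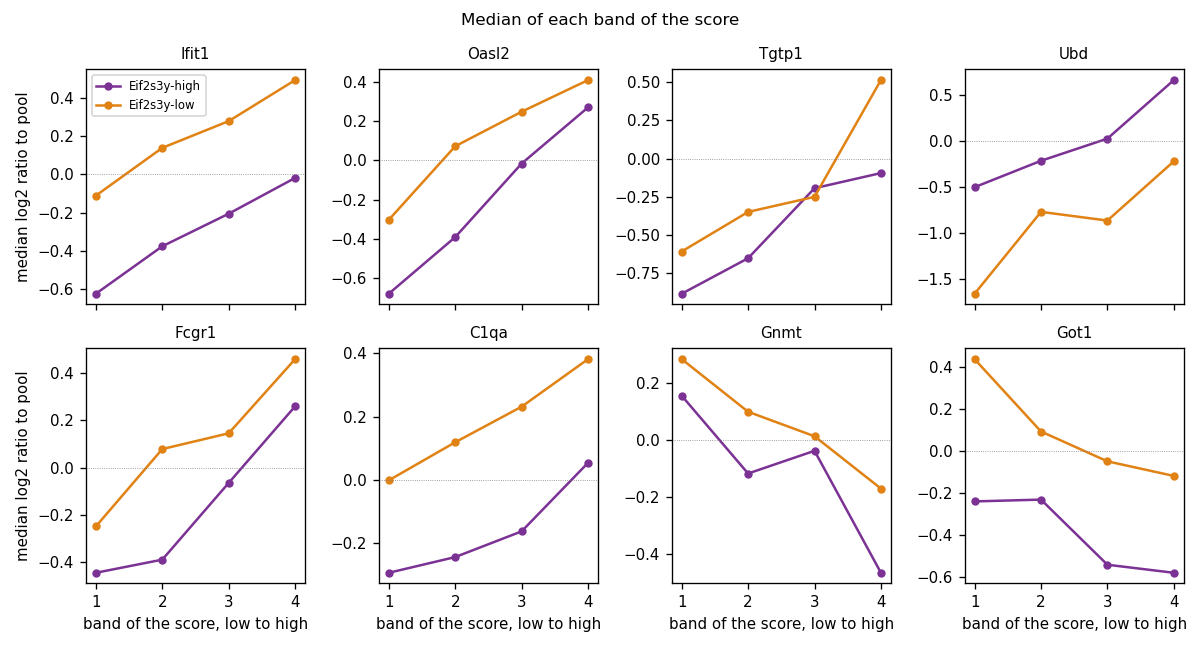
Median log2 ratio to the pool (vertical axis) of 8 genes in the 4 bands of the score from low to high (horizontal axis), for the Eif2s3y-high (purple) and Eif2s3y-low (orange) set. Ifit1, Oasl2 and Fcgr1 step up through the bands in both sets and Got1 is lowest in the highest band, while Tgtp1 in the Eif2s3y-low set stays near -0.25 in the band below the highest and reaches 0.51 in the highest.

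Antigen presentation was the next group. Against 4.36% of all genes, 8 of 20 class I genes were higher in both sets. They included 3 subunits of the immunoproteasome, the form of the proteasome that cuts peptides for presentation: Psmb8 (0.26 ± 0.07 and 0.35 ± 0.07), Psmb9 (0.31 ± 0.07 and 0.39 ± 0.07) and Psmb10 (0.32 ± 0.05 and 0.38 ± 0.06). Among 29 proteasome subunits these were the 3 higher in both sets, and the median over that list was -0.05 in each set. Also higher were the peptide transporter Tap1 (0.28 ± 0.06 and 0.30 ± 0.06), the class I transactivator Nlrc5 (0.27 ± 0.07 and 0.41 ± 0.06) and the nonclassical molecules H2-M3 (0.46 ± 0.05 and 0.43 ± 0.05) and H2-T23 (0.20 ± 0.05 and 0.23 ± 0.05). B2m, the light chain of class I, was not called (0.13 ± 0.10 and 0.03 ± 0.09), and the classical H2-K1 was called in the Eif2s3y-high set alone (0.20 ± 0.06). Of 9 class II genes, 5 were higher in both sets, among them the transactivator Ciita (0.17 ± 0.05 and 0.26 ± 0.05), H2-Aa (0.40 ± 0.08 and 0.42 ± 0.10) and H2-Eb1 (0.67 ± 0.11 and 0.65 ± 0.11). H2-Ea was not called (-0.07 ± 0.18 and -0.00 ± 0.21).

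Of 20 chemokines, 6 were higher in both sets, against 4.36% of all genes. Cxcl10, which draws T cells and which interferon induces, had log2 differences of 0.41 ± 0.13 and 0.60 ± 0.13, and Ccl5 had 0.59 ± 0.18 and 0.66 ± 0.17. Cxcl9, another target of type II interferon, was called in the Eif2s3y-high set (0.41 ± 0.14) and had 0.29 ± 0.13 in the other. Cxcl14 (0.71 ± 0.17 and 0.52 ± 0.12), Ccl4 (0.47 ± 0.17 and 0.60 ± 0.15), Ccl6 (0.50 ± 0.10 and 0.43 ± 0.10) and Cxcl16 (0.33 ± 0.06 and 0.20 ± 0.07) were the others.

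Macrophage genes moved with the score. Of 30 measured macrophage markers, 18 were higher in both sets, against 4.36% of all genes, and none lower, against 1.17%. The mean of the list had a lowest, median and highest value of -0.43, 0.02 and 0.49 in the interferon-high arrays of the Eif2s3y-high set, against -0.78, -0.37 and -0.04 in the interferon-low group. In the Eif2s3y-low set it had -0.22, 0.23 and 0.76 in the interferon-high arrays, against -0.56, -0.04 and 0.36 in the interferon-low group. Fcgr1, the high-affinity receptor for IgG, was 1.65-fold and 1.59-fold higher (0.72 ± 0.07 and 0.66 ± 0.08). Csf1r, the receptor for the macrophage growth factor, had 0.47 ± 0.07 and 0.49 ± 0.07, the integrin Itgax 0.56 ± 0.13 and 0.53 ± 0.13, and the Fc receptor chain Fcer1g 0.46 ± 0.08 and 0.47 ± 0.07. The complement subunits C1qa and C1qb, chosen after their values were seen, had 0.40 ± 0.07 and 0.42 ± 0.06 (C1qa), and 0.52 ± 0.07 and 0.43 ± 0.08 (C1qb). Markers of resident Kupffer cells, also chosen after their values were seen, were not all called. Cd5l was higher in both sets (0.35 ± 0.06 and 0.37 ± 0.07). Marco had 0.42 ± 0.30 and 0.91 ± 0.25 and was called in the Eif2s3y-low set. Clec4f had 0.26 ± 0.10 and 0.41 ± 0.09 and was called there too, and Timd4 (0.11 ± 0.09 and 0.13 ± 0.08) and Vsig4 (0.23 ± 0.11 in each set) were not called. In whole liver, more cells of a type and more RNA per cell cannot be told apart.

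Other blood cells showed fewer shared genes. For comparison, 4.36% of all genes were higher in both sets. Of 10 markers of NK and cytotoxic cells, 4 were higher in both sets: the receptors Klrk1 (0.23 ± 0.04 and 0.36 ± 0.04) and Klrd1 (0.44 ± 0.13 and 0.38 ± 0.12), the transcription factor Eomes (0.41 ± 0.12 and 0.48 ± 0.11), and Ccl5. Of 16 T cell markers 1 was, Cd2 (0.48 ± 0.11 and 0.42 ± 0.08), of 9 B and plasma cell markers 1, Cd22 (0.66 ± 0.10 and 0.42 ± 0.10), of 11 neutrophil markers 1, Csf3r (0.19 ± 0.05 and 0.18 ± 0.06), and of 6 plasmacytoid dendritic cell markers 1, Irf8, which macrophages also express. In the Eif2s3y-high set 2 T cell markers were higher and 1 lower (Cd6), and in the Eif2s3y-low set 3 were higher. None of 12 endothelial or 7 bile duct markers was called in both sets. No endothelial marker was higher in either set, and Tek and Ptprb were lower in the Eif2s3y-low set. Of 19 stellate cell and matrix genes, Mmp13 was the 1 called higher in both. In the Eif2s3y-high set 8 were higher, against 7.74% of all genes. In the Eif2s3y-low set 2 were higher, against 7.23% of all genes, and 2 lower (Col1a1 and Acta2), against 5.25%. The difference between sets was called for none of the 19.

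**Figure D4:**
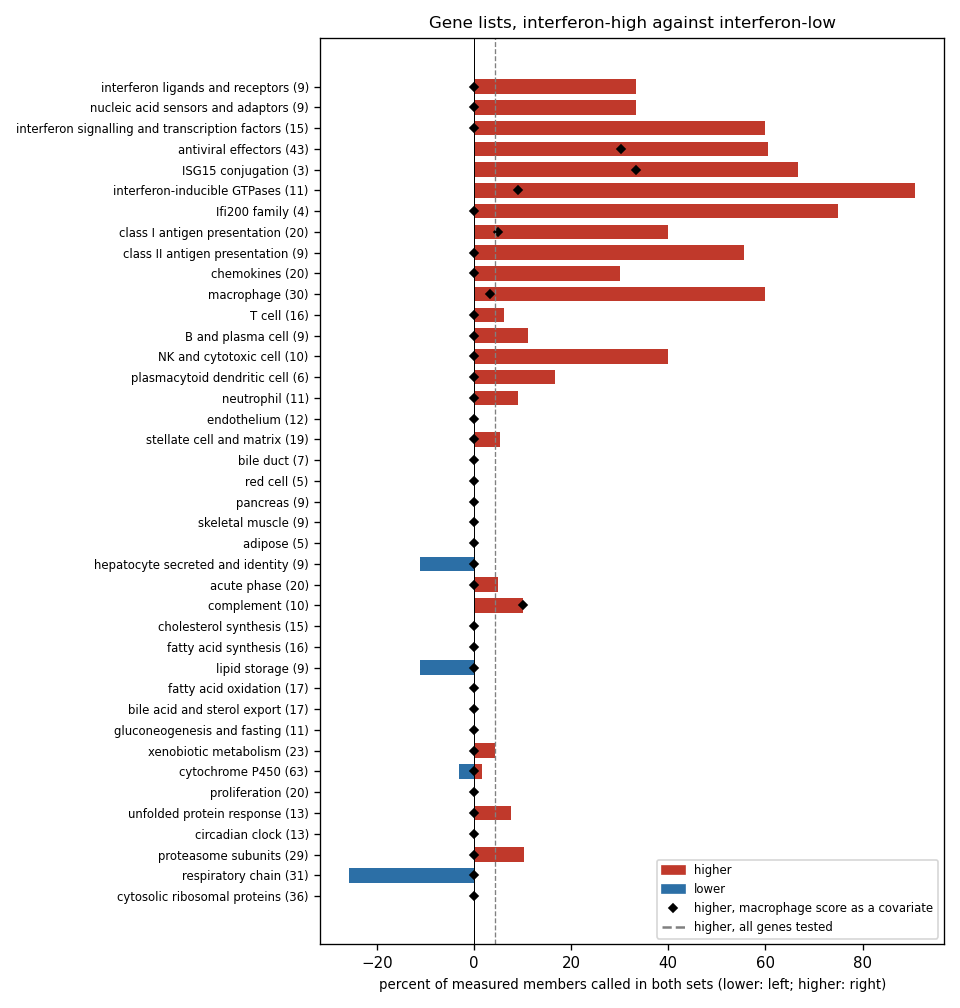
Percent of the measured members of each gene list (number in brackets) called higher (red, right) or lower (blue, left) in both sets, with the percent called higher when the macrophage score is a covariate (black diamonds) and the 4.36% of all genes called higher (dashed line). Interferon targets, macrophage and antigen presentation lists stand far to the right of the line, and 8 of 31 respiratory chain genes are lower.

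Since macrophage markers moved with the score, the comparison was repeated with the mean standardized macrophage list as a covariate. Then 26 genes were higher and 2 lower in both sets, against 496 and 133 without it. At an unadjusted p under 0.05 in limma, 169 were higher and 103 lower in both sets, against 879 and 487 without it. Of the 26, 25 were among the 496, and 16 were in an interferon list. Of the 61 targets 15 were still called in both sets, and their median log2 difference was 0.26 in the Eif2s3y-high and 0.22 in the Eif2s3y-low set, against 0.34 in each without the covariate. Ifit1 was nearly the same size with the covariate (0.62 ± 0.08 and 0.64 ± 0.07), as was Usp18 (0.71 ± 0.10 and 0.58 ± 0.08). For both genes the SE was larger than without the covariate, and the part of wider SEs in the lower counts was not tested. Oasl2 (0.64 and 0.54), Oas2 (0.53 and 0.49), Rtp4 (0.48 and 0.36), Parp14 (0.36 and 0.32) and Gbp3 (0.34 and 0.61) were still called in both sets.

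Some other named genes were no longer called in both sets, with differences of unequal size. Those of Ccl6, which is not in the macrophage list, were -0.02 in each set, those of H2-Eb1 0.11 and 0.18 and those of Ubd 0.38 and 0.75, none of them called. Tgtp1, with 0.53 and 0.92, was called in the Eif2s3y-low set alone. Rnf213 and Znfx1, chosen after their values were seen, were among the 10 genes outside the interferon lists that were higher in both sets with the covariate, with 0.53 and 0.32 (Rnf213) and 0.28 and 0.20 (Znfx1). Fcgr1, Csf1r, Itgax, Fcer1g and C1qa are themselves members of the macrophage list that forms the covariate, so their own values with it are not read here. Fcgr1 can be induced by interferon, and its part in the lower counts was not tested. With the mean T cell list as the covariate, 276 genes were higher and 66 lower in both sets.

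**Figure D5:**
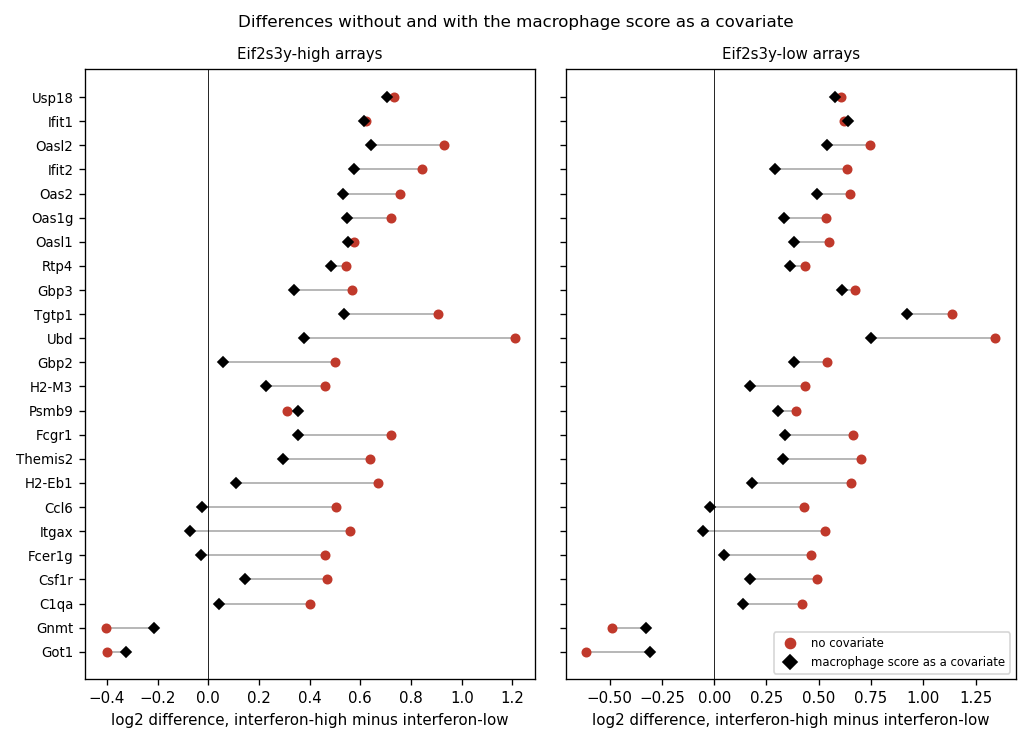
Log2 difference (interferon-high minus interferon-low, horizontal axis) of 24 genes without (red circles) and with (black diamonds) the macrophage score as a covariate, in the Eif2s3y-high (left) and Eif2s3y-low (right) set. Usp18 and Ifit1 barely move, while Ccl6 comes to lie near 0. Fcgr1, Csf1r, Itgax, Fcer1g and C1qa are members of the list that forms the covariate.

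The named shared lower genes included metabolic enzymes and mitochondrial proteins. Gnmt, which consumes S-adenosylmethionine and is abundant in hepatocytes, had medians of -0.47 in the interferon-high and 0.16 in the interferon-low arrays of the Eif2s3y-high set, and of -0.17 and 0.28 in the Eif2s3y-low set. Its log2 differences were -0.40 ± 0.09 and -0.49 ± 0.08, and 5 of 38 and 4 of 39 interferon-high arrays lay above the median of the interferon-low group. The aspartate aminotransferase Got1 had -0.40 ± 0.09 and -0.61 ± 0.12. Also lower were 2 enzymes of the urea cycle, Asl (-0.30 ± 0.08 and -0.42 ± 0.08) and Ass1 (-0.26 ± 0.08 and -0.51 ± 0.11). The pyrimidine-degrading enzyme Dpyd had -0.25 ± 0.09 and -0.51 ± 0.09, and Qdpr, which restores the cofactor of phenylalanine hydroxylase, -0.25 ± 0.06 and -0.40 ± 0.07. Insig2, which restrains sterol synthesis, had -0.29 ± 0.09 and -0.38 ± 0.11, and Noct, whose level follows the time of day, -0.40 ± 0.14 and -0.64 ± 0.13. None of 13 circadian clock genes was called in either set, against 12.5% of all genes in each. A list of this size can show 0 calls at that share, and time of day was not tested.

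Among 31 respiratory chain genes, 8 were lower in both sets, against 1.17% of all genes, and none higher, with a median of -0.10 in each set. Examples are Atp5h (-0.17 ± 0.04 and -0.20 ± 0.04) and Atp5k (-0.20 ± 0.04 and -0.15 ± 0.05), subunits of ATP synthase, and Ndufb6 of complex I (-0.16 ± 0.04 in each set). Of 9 measured genes of hepatocyte identity and secretion, Ass1 was the 1 called lower in both. Of 63 cytochromes P450, Cyp2d10 and Cyp2j5 were lower in both sets, against 1.17% of all genes, and Cyp4f16 higher, against 4.36%. With its most variable probe Cyp4f16 had -0.023 in the Eif2s3y-low set and was not called there. None of 36 cytosolic ribosomal proteins was called in both. With the macrophage score as a covariate, 0 of the 133 shared lower genes were still called in both sets. The respiratory chain list then had a median of -0.05 in each set. At an unadjusted p under 0.05 in limma, 103 of all genes were lower in both sets with the covariate, against 487 without it.

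The sets did not call the same lipid genes. Among Eif2s3y-low arrays 12 of 16 genes of fatty acid synthesis and 6 of 15 of cholesterol synthesis were lower in the interferon-high arrays, against 5.25% of all genes there. In the Eif2s3y-high set 1 and 0 were, against 4.75% of all genes. Chosen after their values were seen, the desaturase gene Scd1 had -1.01 ± 0.18 in the Eif2s3y-low and -0.30 ± 0.13 in the Eif2s3y-high set, Fasn had -0.79 ± 0.18 and -0.01 ± 0.16, and Acly -0.78 ± 0.14 and -0.21 ± 0.13. Acacb, which makes malonyl-CoA at mitochondria, was among the 6 genes with the smallest p for a difference between sets (-0.52 ± 0.08 in the Eif2s3y-low and -0.11 ± 0.06 in the Eif2s3y-high set). Its adjusted p for that difference was 0.185, and for Scd1 it was 0.397, so no lipid gene was called as differing between sets. With the macrophage score as a covariate Scd1 was called lower in both sets (-0.66 in the Eif2s3y-high and -1.24 in the Eif2s3y-low set). Of 20 proliferation genes, 11 were higher in the Eif2s3y-high set, against 7.74% of all genes, such as Birc5, chosen after its values were seen (0.42 ± 0.09), and 1 was lower (Bub1). In the Eif2s3y-low set none of the 20 was called, against 7.23% of all genes higher and 5.25% lower (Birc5 0.19 ± 0.12). The difference between sets was called for none of these 20.

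Of 20 acute phase genes, Lcn2 was the 1 higher in both sets (0.58 ± 0.18 and 0.65 ± 0.18), against 4.36% of all genes, and the median of the list was 0.02 and 0.14. Of 10 complement genes, C2 was higher in both sets (0.14 ± 0.04 and 0.23 ± 0.05), also with the macrophage score as a covariate (0.23 and 0.30). The stress-induced transcription factor Ddit3 was the 1 of 13 unfolded protein response genes higher in both sets (0.25 ± 0.07 and 0.26 ± 0.05), and the quinone reductase Nqo1 the 1 of 23 xenobiotic genes (0.32 ± 0.11 and 0.24 ± 0.07). Dgat2, which makes triglyceride, was the 1 of 9 lipid storage genes lower in both (-0.13 ± 0.04 and -0.19 ± 0.04). No member of the lists of fatty acid oxidation (17 genes), bile acid and sterol export (17), gluconeogenesis and fasting (11), red cells (5) or adipose tissue (5) was called in both sets.

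The shared higher genes were spread over the genome. Their share of tested genes on chromosomes 1 to 19 and X ran from 2.97% on chromosome 2 to 6.53% on chromosome 17, which holds the class I and class II genes. Of the 40 measured neighbours of Ifit3, 2 were higher in both sets (Ifit1 and Ifit2) and 2 lower (Gldc and Ide). Of the 40 neighbours of Irf7 none was called in both.

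Some arrays held transcripts of other tissues. On 12 of the 311 arrays a pancreas or skeletal muscle gene reached 10-fold over the pool; 0 of these arrays were interferon-high and 9 interferon-low. The 9 pancreas genes had a median difference of -0.88 and -0.99. None of 9 pancreas and 9 muscle genes was called in both sets, and without these 12 arrays 454 genes were higher and 113 lower in both. The median number of missing values per array was 74.5 in the interferon-high and 63.0 in the interferon-low arrays of the Eif2s3y-high set, and 77.0 and 78.0 in the Eif2s3y-low set. The F2 number, the 1 label that differed between animals, was used as a possible batch: with arrays above its median as a block, 494 genes were higher and 137 lower in both sets. Within F2 numbers up to the median 98 were higher and 0 lower (89 at an unadjusted p under 0.05 in limma), and within those above it 223 and 22.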

How the data were processed

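Livers of 311 mice were measured on 2-colour arrays, 1 array per animal, with the animal's RNA in Cy3 and a pool in Cy5, per the labels. The values used are ratios that the authors deposited, read as log10; their base and sign are not stated. Since every animal is in the pool, the mean of a probe should fall with its variance with a slope of -1.15 for log10 sample over pool, -0.5 for the natural log, -0.347 for log2 and +1.15 for log10 pool over sample. The slope found was -0.848, so its sign is that of sample over pool, but it lies between the slopes of log10 and the natural log and does not settle the base. Values were read as log10, the nearer of these slopes, and multiplied to log2. Background correction and normalization are not given in the sources used here. Of 48205 pairs of arrays 127 had a correlation under -0.3 (lowest -0.432), with 1 dye orientation stated for all arrays, so the direction was kept. Values are limited to ±2 (1990 values at a limit), and 0.745% are missing. Precision rests on the number of arrays.

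Of 23388 probes, 13645 had 1 gene, 48 several and 9695 none in the platform annotation. Probes with values on under 95% of arrays were dropped, and the probe with the fewest missing values (the first in the file at ties) stood for each of 11387 genes; Ifit3 and Irf7 were left out of the 11385 tested. The highest and lowest of 4 score bands were compared within each set with limma 3.58.1 (lmFit and eBayes) in R 4.3.3, with Benjamini-Hochberg adjustment over all genes at 0.05, and the difference between sets with an interaction contrast. Tables and figures were made with Python 3.11.15, numpy 2.4.6, pandas 2.3.3 and matplotlib 3.10.9. The fit was run on simulated data with known differences. There genes varied independently and no gene chose the groups, so that run says nothing of the calls made here. Named genes are those of the rule, Ifit1, all measured interferon, antigen presentation and chemokine genes, the 15 shared genes with the largest rise and the 15 with the largest fall by the smaller of both differences, up to 4 shared genes of each other list, and the 6 with the smallest p for a difference between sets; others are said to be chosen after their values were seen. Lists were described by counts, with no test. The arrays, genes and lists were chosen with earlier results of these data known. Alternatives were array centring, probe filters and choice, each gene of the score alone, 3 bands or a continuous score, subsets of arrays, F2 number as a block, macrophage or T cell covariates, eBayes with trend and robust, and a threshold of 0.01; leaving out the lowest-scoring array of each set was chosen after seeing the data.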

Additional observations from a re-analysis of the deposited data

How the results depend on the processing

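The counts without any change were 1422 genes called in the Eif2s3y-high set, 1421 in the Eif2s3y-low set, 496 higher and 133 lower in both, and 0 differing between sets. With probes measured on every array (6558 genes fitted) 328 were higher in both. With Ifit3 alone as the score 213 were lower in both, 74 of them among the 133. With Irf7 alone 762 were called in the Eif2s3y-high set, and 132 were lower in both, 39 of them among the 133. With the score as a continuous covariate 251 were lower in both and 2 differed between sets (Ung and Csmd3). With F2 numbers up to the median, 127 and 923 were called in the 2 sets, 98 were higher and 0 lower in both (89 lower at an unadjusted p under 0.05 in limma). With F2 numbers above the median 966 were called in the Eif2s3y-high and 477 in the Eif2s3y-low set. In both sets 223 were higher and 22 lower. Both subsets hold fewer arrays. In the Eif2s3y-high set 19 of 38 interferon-high and 20 of 38 interferon-low arrays had F2 numbers up to the median. With the macrophage covariate 37 and 240 were called, 26 higher and 2 lower in both (169 and 103 at an unadjusted p under 0.05 in limma). With the T cell covariate 599 were called in the Eif2s3y-low set, 276 higher and 66 lower in both. At an adjusted p under 0.01 the counts were 667, 781, 324 and 38. The cause of these changes was not tested. Under the remaining alternatives these counts were within 1.5 times, which does not say that the genes were the same.

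Directions reversed, with none of these calls left, under the most variable probe for Cyp4f16 in the Eif2s3y-low set (-0.023), and under the macrophage covariate for Ifngr1 (-0.030 in the Eif2s3y-high set), Il10rb (-0.071 in the Eif2s3y-high set and -0.051 in the Eif2s3y-low set), Xaf1 (0.018 in the Eif2s3y-high set), H2-Aa (-0.014 in the Eif2s3y-high set and -0.012 in the Eif2s3y-low set), Cxcl16 (-0.040 in the Eif2s3y-high set and -0.159 in the Eif2s3y-low set), Ccl4 (-0.131 in the Eif2s3y-high set), Ccl6 (-0.024 in the Eif2s3y-high set and -0.020 in the Eif2s3y-low set), Serpina3f (0.114 in the Eif2s3y-high set), Itgax (-0.070 in the Eif2s3y-high set and -0.052 in the Eif2s3y-low set), Fcer1g (-0.029 in the Eif2s3y-high set), Klrd1 (-0.051 in the Eif2s3y-low set), Csf3r (-0.029 in the Eif2s3y-high set), Nqo1 (-0.0081 in the Eif2s3y-high set), Cyp2d10 (0.017 in the Eif2s3y-high set), Cyp4f16 (-0.019 in the Eif2s3y-high set) and ZBED4 (0.067 in the Eif2s3y-high set). Itgax and Fcer1g are members of the macrophage list that forms the covariate, so their values with it are not read. For the other genes the cause was not tested. No paired analysis was possible because each animal has 1 array in 1 group and its number is an F2 animal number, not a replicate shared between groups. Scores and genes share arrays, ratios to a pool hide absolute level, and a probe is named from an old annotation.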
